A study of Mus musculus with 18 samples.

Results

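The genes of glycolysis and of pyruvate and lactate handling were followed in FVB/N mouse embryonic stem (ES) cells, the cells of the early embryo that can be kept dividing in culture without differentiating. The list had 31 genes, and every probe set whose chip annotation gives 1 of them as its sole gene symbol was taken. This gave 65 probe sets, of which 18 are control probe sets of Gapdh and 47 were tested. They measured 28 of the 31 genes, of 15964 genes in all. Gpi1 and Eno1 had no such probe set, and Gapdh had control probe sets alone. Several of the enzymes have isoforms encoded by separate genes, and these were compared with each other within each dish.

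WT FVB/N ES cells were grown with LIF, the cytokine that keeps mouse ES cells undifferentiated through STAT3. They were compared with ES cells of 1 transgenic line, which carry STAT3-MER, mouse STAT3 fused to a changed ligand-binding domain of the estrogen receptor, and were grown without LIF and with 4-hydroxytamoxifen (OHT), the drug that switches the fusion protein on. A chicken β-actin promoter drives the transgene, and both kinds of cells were derived on mouse embryonic feeder fibroblasts. There were 3 independently cultivated dishes per group, each put on the chips U74Av2, U74Bv2 and U74Cv2, for 18 arrays. Transgene, drug and absence of LIF always went together and cannot be told apart, and the transgenic dishes are all of 1 line. The study describes a comparison of both lines, so the WT dishes appear to share 1 line as well. Differences between the lines themselves cannot be told apart from the rest. Values are signal intensities of a probe set, in arbitrary units, with the trimmed mean of each array near 500.1 to 500.3.

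Glycolysis splits glucose into pyruvate. Glucose enters through transporters, is trapped by hexokinase, is committed at phosphofructokinase, and is turned into pyruvate by enzymes that end with pyruvate kinase. Pyruvate is then either reduced to lactate and exported or oxidised by the pyruvate dehydrogenase complex, which the pyruvate dehydrogenase kinases switch off. Undifferentiated mouse ES cells are known to use both routes.

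No member passed the test between the groups. Of the 47 probe sets, 0 had an adjusted p under 0.05 (limma with Benjamini-Hochberg adjustment over 36701 probe sets), where 0.00272% of all probe sets were called higher and 0.0% lower in cells carrying STAT3-MER. With p under 0.05 before adjustment, 3 of 47 were higher, against 1.88% of all, and 0 were lower, against 1.57%. These 3 were 1 probe set each of Hk2, Pfkp and Pdk2. The criteria of the study's methods were a ratio of means over 1.5, a difference over 100 and p under 0.1. On the deposited signals 0 member probe sets met them in either direction, against 1.1% and 0.872% of all. The study applied them to other values, computed with the program dCHIP, and lists Hk2 among its upregulated genes. Over 1 probe set per gene, log2 fold changes (STAT3-MER over WT, of signal + 32) ran from -0.38 for Pdk3 to 1.21 for Pdk2, with a median of 0.04 over 28 genes and 0.00 over all 15964. They were positive for 16 genes and negative for 12, and smaller than their own standard error (SE) for 22. The SEs ran from 0.19 to 0.54 with a median of 0.30. In whole-dish RNA, fewer cells of a type and less RNA per cell cannot be told apart.

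**Figure D1:**
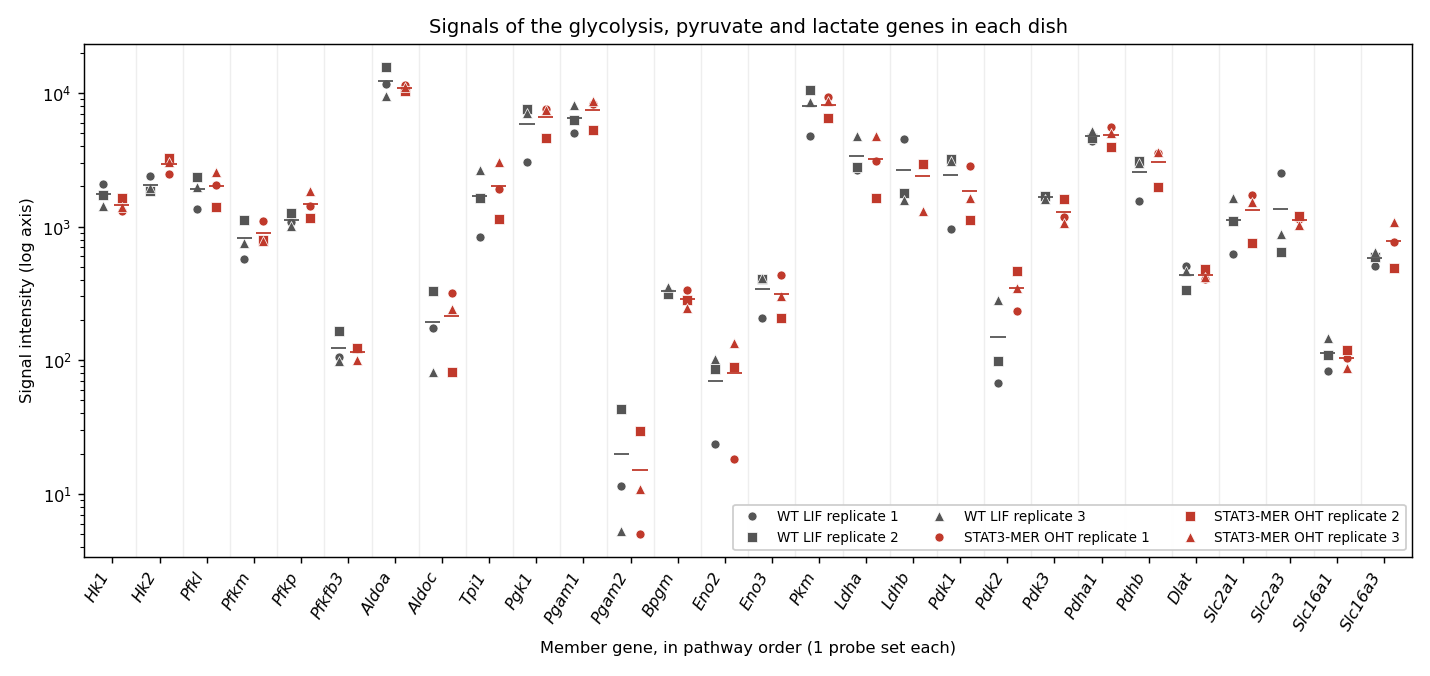
Signal intensity (log axis) of 1 probe set for each of 28 member genes in pathway order, with WT LIF dishes in grey and STAT3-MER OHT dishes in red, symbols for the replicate number and short lines for the group means (n = 3 dishes each). Points of the 2 groups are mixed for most genes. They are apart for Hk2, which is higher in the red dishes, and for Pdk3, which is lower.

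The plot of signals in each dish shows the whole list at once, and the plot of differences shows every tested probe set with its error.

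**Figure D2:**
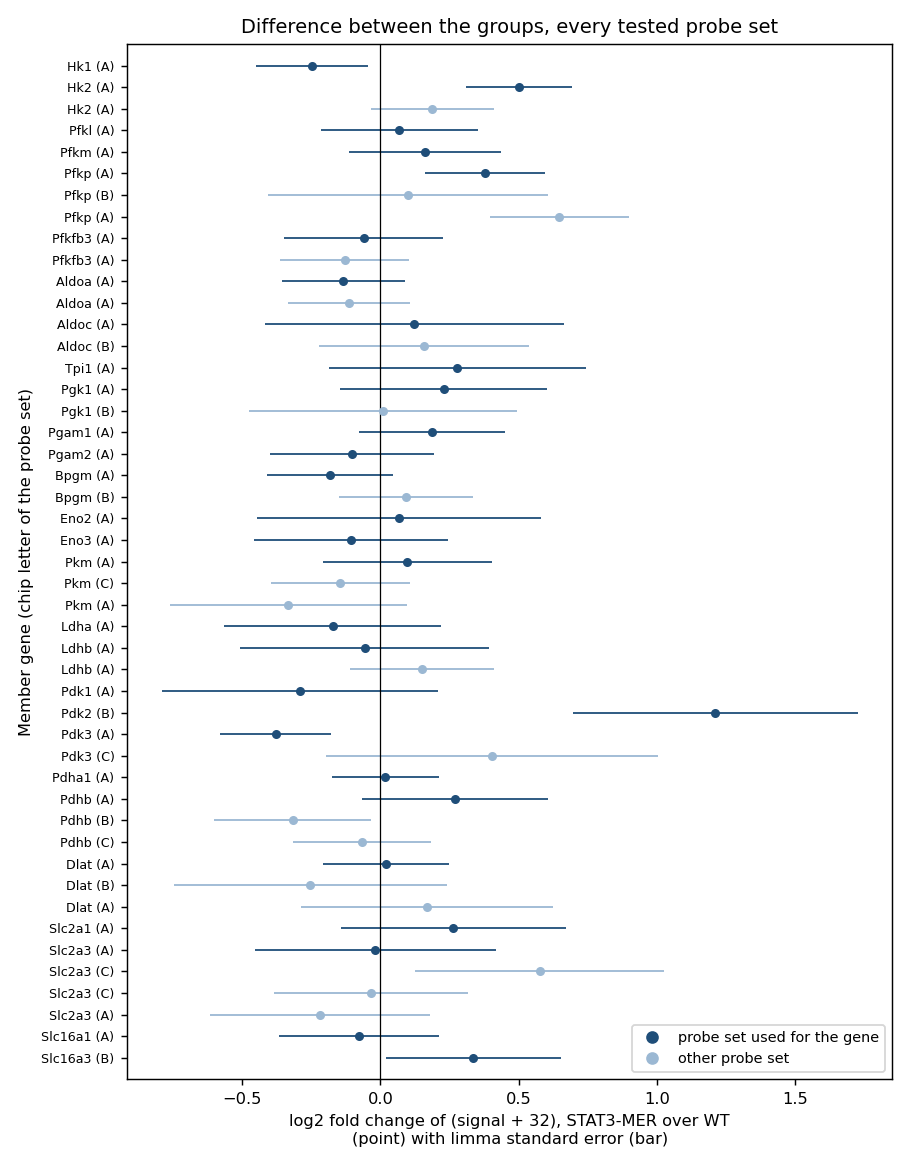
Log2 fold change of (signal + 32), STAT3-MER over WT, for each of the 47 tested member probe sets, with the chip letter in brackets. Points are limma estimates, bars their standard errors, and dark points the probe set used for the gene. Most bars cross 0. The farthest point is Pdk2 at 1.21, with the bar of 0.51 either way.

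The hexokinases trap glucose in the cell as glucose 6-phosphate, and Hk2 is the isoform best known for its inducible expression while Hk1 is the widely expressed one. Hk2 (94375_at) had signals of 2377, 1852 and 1938 in the WT dishes and of 2463, 3279.7 and 3038 in the STAT3-MER dishes. Every STAT3-MER dish was above every WT dish, although the nearest dishes differed by little. The means were 2056 ± 282 and 2927 ± 420 (SD, n = 3), a ratio of 1.42 and a log2 fold change of 0.50 (SE 0.19, limma unadjusted p = 0.0297, adjusted p = 0.9996). Hk2 is among the genes that the study itself picked from these dishes, so its direction here is no independent evidence. Beside the arrays, the study reports real-time PCR of Hk2, also higher in the transgenic cells than in WT cells. Under quantile scaling WT replicate 1 had 2487 and STAT3-MER replicate 1 had 2359, and the groups then overlapped. A second Hk2 probe set (161313_at) had signals between 1.87 and 28.0 in all dishes, too dim to compare. Hk1 (99335_at) had 2089.6, 1712 and 1416 in the WT group and 1298, 1636 and 1411 in the transgenic group, with a log2 fold change of -0.25 (SE 0.20). The Hk1 groups overlapped.

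The ratio of Hk2 to Hk1 within an array was the one isoform ratio whose groups did not overlap. The signal of the Hk2 probe set was 1.14, 1.08 and 1.37 times that of the Hk1 probe set in the WT dishes and 1.90, 2.01 and 2.15 times in the STAT3-MER dishes. On the log2 scale of signal + 32 the means were 0.25 ± 0.17 and 1.00 ± 0.09 (SD, n = 3), a difference of 0.75 (SE 0.11, exact permutation test, two-sided, p = 0.1, the smallest that 3 against 3 dishes allow, adjusted p = 1 over 10 pairs). The ratio compares both probe sets within a dish. It does not say which enzyme had more RNA, since each probe set has its own brightness. When any 1 dish was left out, the difference lay between 0.68 and 0.85. Hk2 is part of this ratio too, with the same reservation.

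**Figure D3:**
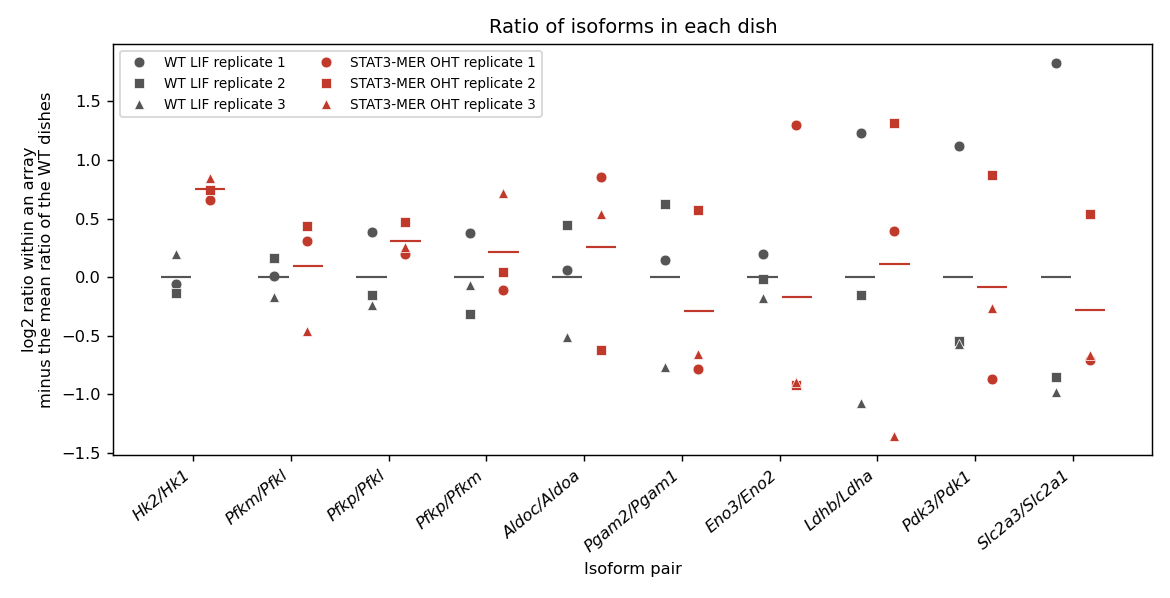
Log2 ratio of the signals of a pair of isoforms within an array, minus the mean ratio of the WT dishes, for the 10 pairs with both isoforms on U74Av2. WT LIF dishes are grey and STAT3-MER OHT dishes red, and lines are group means (n = 3 dishes). The groups are apart for Hk2/Hk1 (difference 0.75), and for the 9 other pairs they overlap, widely so for Slc2a3/Slc2a1.

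The promoters of the hexokinase pair are shown because theirs is the ratio whose groups were apart. They are RefSeq sequences of GRCm38.p6, 250 bases before to 50 after a transcript start. Capitals mark ACGTG, a form of the core of the hypoxia response element, on either strand (CACGT when it lies on the other one). Other forms of the core were not counted. Neither promoter holds TTCNNNGAA, the palindrome that STAT proteins bind. The Hk2 sequence is chr6:82774405-82774704 on the minus strand and the Hk1 sequence chr10:62340372-62340671, also minus. A second Hk1 start in the table holds no ACGTG.
Hk2: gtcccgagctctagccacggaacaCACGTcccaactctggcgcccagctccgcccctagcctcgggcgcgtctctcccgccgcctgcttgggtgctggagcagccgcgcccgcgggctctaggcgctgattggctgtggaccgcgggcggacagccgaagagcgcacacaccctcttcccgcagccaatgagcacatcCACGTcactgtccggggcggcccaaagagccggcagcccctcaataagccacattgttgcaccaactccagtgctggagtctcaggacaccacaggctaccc
Hk1: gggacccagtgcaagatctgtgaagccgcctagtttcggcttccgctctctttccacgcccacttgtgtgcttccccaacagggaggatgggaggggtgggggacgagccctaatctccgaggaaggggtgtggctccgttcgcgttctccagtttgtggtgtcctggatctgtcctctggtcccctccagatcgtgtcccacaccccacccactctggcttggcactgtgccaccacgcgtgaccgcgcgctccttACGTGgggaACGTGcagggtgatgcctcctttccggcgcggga

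Slc2a1 and Slc2a3 encode the glucose transporters GLUT1 and GLUT3. Slc2a1 (93738_at) had 627, 1101 and 1630.5 with LIF and 1737, 749.5 and 1518 with OHT, a log2 fold change of 0.26 (SE 0.41). Slc2a3 (93804_at) had 2503, 649 and 879 in WT dishes and 1138, 1193 and 1024 in STAT3-MER dishes, a log2 fold change of -0.02 (SE 0.44). Slc2a1 was lowest and Slc2a3 highest in the same dish, WT replicate 1, so that their ratio spanned 7.41-fold within the WT group. A dimmer probe set assigned to Slc2a3 (169614_at, on U74Cv2) had 80.8, 84.1 and 81.1 in the WT group and 206.8, 98.0 and 126 in the transgenic group, with no overlap between the groups. Its log2 fold change of 0.58 had an SE of 0.45, and the other 3 Slc2a3 probe sets overlapped, with log2 fold changes from -0.22 to -0.02. No overlap was seen in 2 of 47 member probe sets in the higher direction (Hk2 and this one) and in 1 in the lower direction (Pdk3), against 4.5% and 3.63% of all probe sets.

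Phosphofructokinase sets the pace of the pathway and is built from the liver-type, muscle-type and platelet-type subunits of Pfkl, Pfkm and Pfkp. Pfkp had the largest difference of the 3. Its probe set 97834_g_at had 1329, 1994 and 1567 (WT) and 3151, 1854 and 2789 (STAT3-MER), a ratio of 1.59 and a log2 fold change of 0.65 (SE 0.25, limma unadjusted p = 0.0319, adjusted p = 0.9996). STAT3-MER replicate 2 lay inside the WT range. Its probe set 97833_at gave 0.38 (SE 0.22) and the one on U74Bv2 gave 0.10 (SE 0.50), both with overlapping groups. Pfkl and Pfkm gave 0.07 (SE 0.28) and 0.16 (SE 0.27). The 3 ratios among these subunits differed between the groups by 0.09, 0.22 and 0.31 on the log2 scale, each with overlap. Pfkfb3, which makes the activator fructose 2,6-bisphosphate, was dim, with signals from 99.1 to 166 and a log2 fold change of -0.06 (SE 0.29).

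The groups overlapped for every probe set of the enzymes from aldolase to pyruvate kinase. Aldoa, the main aldolase, had mean signals of 12216 ± 3096 in WT and 10904 ± 573 in STAT3-MER dishes (SD, n = 3), and a log2 fold change of -0.13 (SE 0.22), while its second probe set gave -0.12. Aldoc, the brain-type aldolase, had 195 ± 125 and 214 ± 121 and a log2 fold change of 0.12 (SE 0.54). The ratio of Aldoc to Aldoa differed by 0.26 between the groups, with overlap. Tpi1, which interconverts the triose phosphates, had the signals 829, 1627 and 2667 with LIF and 1901, 1131 and 3020 with OHT. The WT dishes alone spanned 3.22-fold, and the log2 fold change between the groups was 0.28 (SE 0.46).

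Pgk1 makes the first ATP of the pathway. Its signals were 3020.5, 7556 and 7113 in WT dishes and 7652, 4593 and 7460 in STAT3-MER dishes, with a log2 fold change of 0.23 (SE 0.38). One dish of each group was low. Pgam1, the phosphoglycerate mutase of most tissues, gave 0.19 (SE 0.26), and Pgam2, the muscle form, was between 5.03 and 43.1 in every dish. Bpgm, which makes 2,3-bisphosphoglycerate, had 330 ± 19 in WT and 289 ± 45 in STAT3-MER dishes and a log2 fold change of -0.18 (SE 0.23). Its U74Bv2 probe set gave 0.09. Of the enolases, Eno2 (the neuronal form) was dim, at 18.4 to 134, and Eno3 (the muscle form) had 341 ± 117 and 314 ± 113, with log2 fold changes of 0.07 (SE 0.51) and -0.11 (SE 0.35). Pkm, the pyruvate kinase of most tissues, had mean signals of 7948 ± 2904 and 8168 ± 1468 (SD, n = 3) and a log2 fold change of 0.10 (SE 0.31), and its other 2 probe sets gave -0.33 and -0.15. Probe sets here do not separate its splice forms by name.

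Lactate dehydrogenase is built from the subunits of Ldha, known for lactate production, and Ldhb. Ldha had 2669.5, 2787 and 4724 in the WT group and 3123, 1637 and 4777 in the transgenic group, and Ldhb had 4519, 1786 and 1593 with LIF and 2944, 2947 and 1314 with OHT. The log2 fold changes were -0.17 (SE 0.39) and -0.06 (SE 0.45). The signal ratio of Ldhb to Ldha ranged from 0.337 to 1.69 among the WT dishes and from 0.275 to 1.80 among the STAT3-MER dishes, so that the dishes differed far more than the groups did (difference 0.11 on the log2 scale, SE 1.03, exact permutation p = 0.9). Replicate 3 had the lowest ratio in each group. Slc16a1 and Slc16a3, the lactate carriers MCT1 and MCT4, gave log2 fold changes of -0.08 (SE 0.29) and 0.34 (SE 0.32). They are on different chips, and their ratio was not formed. Of the 15 pairs of isoforms listed, 5 had no common chip or no probe set.

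Entry of pyruvate into the citrate cycle depends on the pyruvate dehydrogenase complex. The E1 subunits Pdha1 and Pdhb gave log2 fold changes of 0.02 (SE 0.19) and 0.27 (SE 0.34), and the E2 subunit Dlat gave 0.02 (SE 0.23). Other probe sets of Pdhb gave -0.32 and -0.07, and those of Dlat -0.25 and 0.17. The sign of Pdhb and of Dlat thus depended on the probe set. The kinases that switch the complex off did not share a direction. Pdk1 had 959, 3191 and 3105 in WT dishes and 2818, 1119.9 and 1633.5 in STAT3-MER dishes, a log2 fold change of -0.29 (SE 0.50). Pdk2 (109774_at, on U74Bv2) had 67.3, 98.8 and 282 in the WT group and 235, 468 and 347 in the transgenic group. This was the largest log2 fold change of the list, 1.21 (SE 0.51, limma unadjusted p = 0.0409, adjusted p = 0.9996), and 1 WT dish lay within the STAT3-MER range.

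Pdk3 (92810_at) was the one member whose STAT3-MER dishes all lay below the WT dishes. It had 1653.5, 1695 and 1620 with LIF and 1187, 1615.5 and 1056 with OHT, with means of 1656 ± 37 and 1286 ± 293 (SD, n = 3) and a log2 fold change of -0.38 (SE 0.20, limma unadjusted p = 0.0945). STAT3-MER replicate 2 stood just under the lowest WT dish. Under quantile scaling it had 1650.5 against 1599.7 in WT replicate 3, and the groups overlapped. The second Pdk3 probe set, on U74Cv2, had 78.7, 122 and 82.8 in WT dishes and 360, 91.8 and 60.8 in STAT3-MER dishes, with a log2 fold change of 0.40 (SE 0.60). The direction of Pdk3 was therefore not shared by its probe sets.

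Genes around the list also gave 0 calls (limma, adjusted p under 0.05). Of 31 other glycolysis and pyruvate genes, 27 were measured, with a median log2 fold change of 0.00. At a limma unadjusted p under 0.05, 1 was higher and 1 lower, against 258 and 209 of all 15964 genes. Pgm1, the symbol of a phosphoglucomutase of glycogen metabolism, had 1834, 2083 and 2810 in the WT group and 1349, 1099.6 and 1609 in the transgenic group, with no overlap and a log2 fold change of -0.71 (SE 0.23, limma unadjusted p = 0.0138). Slc2a2, the transporter GLUT2, gave 0.50 (SE 0.21) at signals of 6.70 to 44.8. Hk3, another hexokinase, gave 1.501 (SE 0.69) with 30.3, 315 and 417 with LIF and 742, 449 and 560 with OHT. Both had groups that did not overlap. Slc2a2 was dim, and Hk3 rested on a wide WT range. No overlap was seen for 2 of the 27 genes in the higher direction and 2 in the lower, against 642 and 559 of all 15964.

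Of 30 genes of the pentose phosphate route, gluconeogenesis and the citrate cycle, 28 were measured, with a median of 0.02. Their smallest p-values belonged to Sucla2 and Suclg1, subunits of succinyl-CoA ligase, at 1.31 (SE 0.56) and 0.37 (SE 0.17), and to Idh3g, a subunit of isocitrate dehydrogenase, at 0.45 (SE 0.25). The groups did not overlap for Suclg1. In these 28 genes, 2 had no overlap in the higher direction and 1 in the lower, against 642 and 559 of all 15964. At a limma unadjusted p under 0.05, 1 was higher and 0 lower, against 258 and 209 of all. Of 20 hypoxia-responsive genes outside glycolysis, 18 were measured, with a median of -0.11, 6 positive and 12 negative. The 3 with the smallest p-values were all negative. Hif1a, the oxygen-regulated subunit of the hypoxia-inducible factor, had 6204, 6485 and 7811 in WT dishes and 5569, 5013 and 5980 in STAT3-MER dishes, without overlap (log2 fold change -0.30, SE 0.18, limma unadjusted p = 0.129). Egln3 and Bnip3, both known as its targets, gave -0.68 (SE 0.54) and -0.46 (SE 0.40), with overlap. Of the 18 genes, 1 had no overlap in the lower direction, against 559 of all 15964.

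The clearest pattern among the members ran across the groups and not between them. On U74Av2, WT replicate 1 and STAT3-MER replicate 2 both lay below the other 4 dishes for 12 of 34 member probe sets, against 10.6% of all probe sets of the chip. These were Slc2a1, Pfkl, Tpi1, Pgk1, Pgam1, Eno3, Pkm (both probe sets), Ldha, Pdk1, Pdha1 and Pdhb. Both dishes lay above the others for 4, Ldhb, Slc2a3 (both probe sets) and Dlat, against 15.1% of all. Among probe sets with a mean signal over 1000 it was 11 of 20 below, against 23.3% of all, and 2 above, against 13.7%. The median deviation of the 34 from the mean of the 6 dishes was -0.20 in WT replicate 1 and -0.12 in STAT3-MER replicate 2, and 0.08 to 0.22 in the others, while that of all probe sets stayed between -0.07 and 0.03. The 17 other glycolysis and pyruvate genes on this chip went the other way. Their median was 0.21 in WT replicate 1, 0.16 in STAT3-MER replicate 2 and -0.20 to 0.01 in the others, though 7 of them were under 100 on every array. The dish of each group with the highest 3′ to 5′ ratio of the Actb controls (given below) was set apart. This split of the dishes was chosen after the values were seen. On the other chips, with WT replicate 2 in the place of WT replicate 1, it held for 0 of 8 member probe sets on U74Bv2 in the lower direction and 1 of 8 in the higher, against 10.5% and 10.9% of all. On U74Cv2 it was 1 of 5 in each direction, against 8.98% and 8.35%. These chips hold few member probe sets, and the counts give no pattern there.

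**Figure D4:**
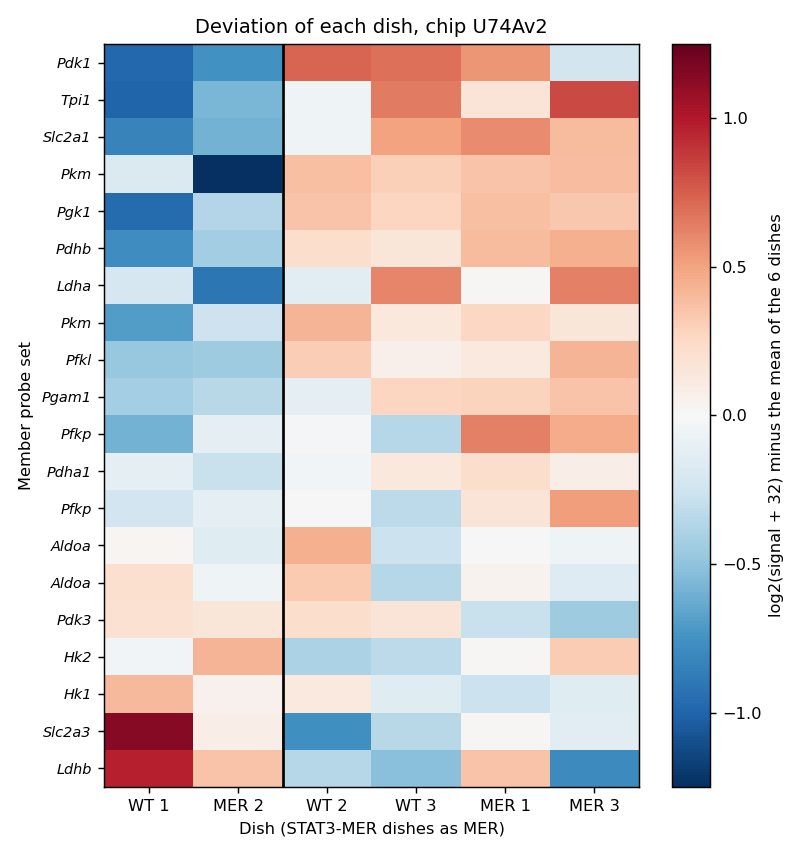
Deviation of log2(signal + 32) in each dish from the mean of the 6 dishes (blue low, red high) for the 20 member probe sets of U74Av2 with a mean signal over 1000, ordered by WT replicate 1 plus STAT3-MER replicate 2. Those dishes stand left of the black line. They are the lowest of the 6 in 11 of the rows from Pdk1 down to Pdha1 (Pfkp between them is the exception), and the highest in the rows of Slc2a3 and Ldhb.

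The same dishes stood apart in the control probe sets of Gapdh, the glyceraldehyde 3-phosphate dehydrogenase of the pathway. Since they had been picked by the Actb ratio, a measure of the same kind, this is no independent evidence. The label was made by amplification from the 3′ end of the RNA, so a high ratio of 3′ to middle signal goes with short copies. On U74Av2 that ratio was 3.83, 2.65 and 2.06 in the WT group and 2.28, 3.16 and 2.21 in the transgenic group. It was highest in WT replicate 1 and STAT3-MER replicate 2. The 3′ signal of Gapdh lay between 20850 and 29334 in all 6 dishes, with overlap of the groups, and the middle signal was 5990.2 and 6598 in those dishes and 10012 to 12683 in the others. On U74Bv2 and U74Cv2 the WT dish with the high ratio was replicate 2 (3.81 and 3.78), and STAT3-MER replicate 2 was again the high one of its group (3.18 and 2.72), so WT numbers 1 and 2 may not name the same dishes on every chip.

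**Figure D5:**
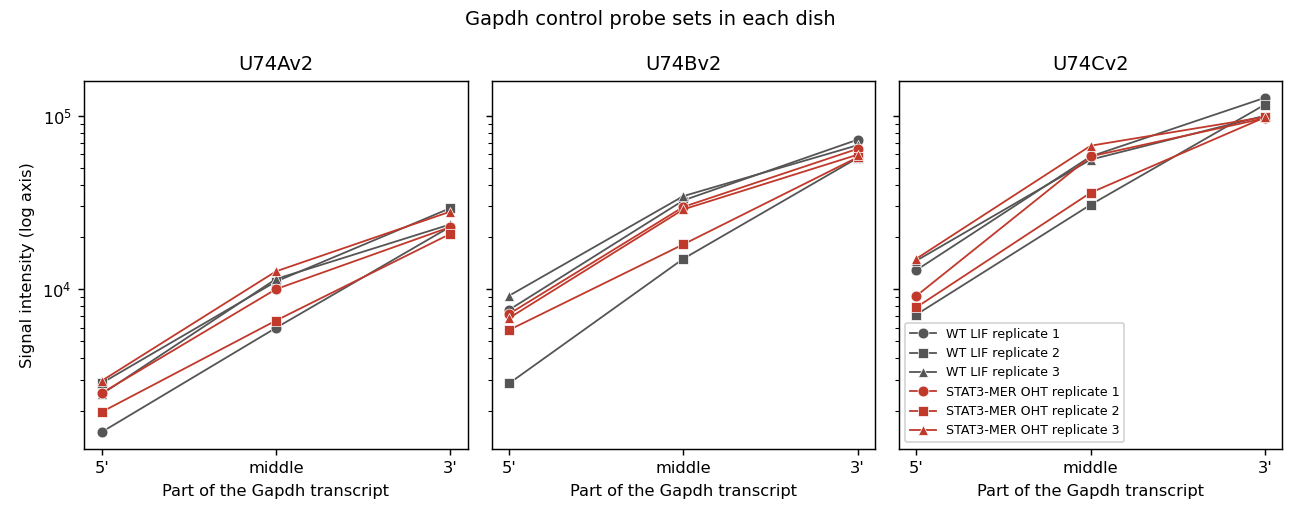
Signal intensity (log axis) of the 5′, middle and 3′ control probe sets of Gapdh on each chip, with a line for each dish (WT LIF grey, STAT3-MER OHT red). On every chip the 3′ signals lie close together, while 1 WT and 1 STAT3-MER dish have the lowest middle signals, 5990.2 and 6598 on U74Av2.

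The control probe sets of Actb, which is no member, gave a 3′ to 5′ ratio on U74Av2 of 7.81, 4.69 and 5.95 with LIF and 5.03, 5.45 and 5.07 with OHT. WT replicate 1 was the highest of the 6 dishes by this measure. STAT3-MER replicate 2 was the highest of its own group by a small margin and lay below WT replicate 3. Without both dishes, chosen per chip by this ratio after the values were seen, no member passed the threshold, and the groups did not overlap for 8 of 47 member probe sets in the higher direction, against 16.8% of all, and for 4 in the lower, against 13.6%. Hk2 then had a log2 fold change of 0.52 (SE 0.20) and, with the ratio as a covariate, 0.62 (SE 0.20). With the covariate the median over the 28 genes was -0.15. The part of RNA length in the pattern across dishes was not tested.

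The groups overlapped in their markers of other cells too. All 8 markers of undifferentiated ES cells were measured, and their summed signal on U74Av2 was 55081 to 81623 in WT and 59650 to 70469 in STAT3-MER dishes. Dppa5a alone gave 43341 of the 81623 in WT replicate 1, so the sum follows this gene closely. Of the 8 markers, 5 had a positive log2 fold change and 3 a negative one, with a median of 0.09. Of 15 feeder fibroblast markers 0 were under 100 on every array. Their summed signal on U74Av2 (14 genes) was 34390, 17636 and 40806 in WT dishes and 10880, 41664 and 30052 in STAT3-MER dishes, and 14 of 15 had a negative log2 fold change, with a median of -0.21. The part of feeder RNA in the members' values was not tested. Of 7 primitive endoderm markers 1 (Gata6) was under 100 on every array, and their summed signal was 1089 to 2811 in WT and 1400 to 1964 in STAT3-MER dishes. Of 5 trophectoderm markers 1 (Cdx2) was under 100 on every array, and 4 had a negative log2 fold change. Their summed signal was 792 to 1823 and 553 to 1178. Among them Krt8, a keratin of simple epithelia, had 849, 544 and 421 in the dishes with LIF and 648, 199.7 and 46.8 in those with OHT, with overlap (log2 fold change -1.40, SE 0.69).

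The promoters of the list were described last. Of the 31 genes 30 had a promoter in the RefSeq table, and Slc2a3 had none. TTCNNNGAA, read on both strands, was found in 2 of the 30 genes (Aldoc and Pfkm), or 6.67%, against 8.92% of 17492 protein-coding genes. ACGTG was found in 17 of the 30, or 56.7%, against 23.2%, and CACGTG, the E-box that contains it, in 5, or 16.7%, against 8.91%. A gene was counted when any of its starts had the motif. The 30 members had 44 promoters, and the 17492 protein-coding genes had 21263. By promoter, ACGTG was in 20 and CACGTG in 5 of the 44, against 19.6% and 7.15% of 32851 promoters in all. ACGTG holds a CpG, and the member promoters had a median GC content of 61.2% against 56.3%. Slc2a1, Pgk1, Pgam1, Pkm, Ldha and Pdhb, of the genes low in the same pair of dishes, hold ACGTG, and Pfkl, Tpi1, Eno3, Pdk1 and Pdha1 do not. Ldha is shown because its window has the most matches in the list, counted over both strands (chr7:46845554-46845853, plus strand), and Pfkm because it is one of the genes with the STAT palindrome (chr15:98108221-98108520, plus strand, with TTCNNNGAA and ACGTG in capitals).
Ldha: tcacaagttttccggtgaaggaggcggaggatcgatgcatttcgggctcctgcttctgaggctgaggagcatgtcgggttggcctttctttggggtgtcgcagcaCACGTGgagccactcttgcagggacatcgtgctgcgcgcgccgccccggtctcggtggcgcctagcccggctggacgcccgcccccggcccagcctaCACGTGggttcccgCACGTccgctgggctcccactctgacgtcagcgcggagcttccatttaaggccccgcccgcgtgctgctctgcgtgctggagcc
Pfkm: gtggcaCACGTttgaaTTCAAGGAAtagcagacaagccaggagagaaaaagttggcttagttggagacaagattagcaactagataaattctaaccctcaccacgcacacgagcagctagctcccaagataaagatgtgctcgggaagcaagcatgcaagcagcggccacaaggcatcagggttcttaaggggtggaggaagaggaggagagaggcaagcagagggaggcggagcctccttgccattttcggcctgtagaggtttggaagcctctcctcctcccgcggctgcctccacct
A match is a stretch of letters and no shown binding site. Hk2 has 2 ACGTG and no TTCNNNGAA in its window, and Pfkm, with the palindrome, had a log2 fold change of 0.16 (SE 0.27).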

How the data were processed

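RNA of 3 dishes per group was amplified in 2 rounds and hybridized to U74Av2, U74Bv2 and U74Cv2. The values are linear signal intensities per probe set, which the authors deposited already scaled and without detection calls. Per the labels they were made with MAS5, with no version. The number of arrays limits the precision. One U74Av2 array without a number in its label was taken as STAT3-MER replicate 2, the number left over, and 1 array whose labels name different chips as U74Cv2, whose probe sets it holds.

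Arrays were rescaled to the 2% trimmed mean of their chip, and log2(signal + 32) was compared with limma 3.58.1 in R 4.3.3 (eBayes with trend, 1 fit per chip, two-sided, Benjamini-Hochberg adjustment over 36701 probe sets without controls, threshold 0.05). The model was also run on simulated arrays, with independent noise for each probe set. Variation shared within a dish was not simulated, so that run does not vouch for the test on these data. For each gene a probe set without a suffix was preferred, then the brightest. The methods' criteria used a t-test of unstated form, here with unequal variances. Isoform ratios were tested by exact permutation (scipy 1.17.1). The members, lists and isoform pairs were chosen with earlier results of these data known, and the split of dishes, the signal limit of 1000, the Actb alternatives and the protein-coding background of the promoters after values were seen. All 31 members were named, with signals in each dish where groups did not overlap or a ratio turned on them, and from each of the 3 pathway lists the 3 genes with the smallest p. Scaling, pseudocount, filter, variance model, adjustment, replicate block, probe set rule and dishes left out were varied. Gene names come from the chip annotation updated through RefSeq of GRCm38.p6. Protein sequences were not used here.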

Additional observations from a re-analysis of the deposited data

How the results depend on the processing

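No member passed the threshold in any of the 18 fits run. The methods' criteria for higher signals were met by 0 member probe sets, against 1.1% of all probe sets. It was 1 (Pfkp) with equal variances or quantile scaling, against 1.43% and 1.02%. It was also 1 (Pfkp) without the dish of each group with the highest Actb 3′ to 5′ ratio, against 1.05%. When 1 dish was left out it was 0 to 2, against 1.17% to 1.3%. It was 1 without WT replicate 1 (Hk2), WT replicate 2 (Pfkp), WT replicate 3 (Pdk2) or STAT3-MER replicate 2 (Pfkp). Without STAT3-MER replicate 1 it was 2 (Hk2 and Pdk2). The criteria for lower signals were met by 0 in every setting run, against 0.537% to 1.3% of all. Groups did not overlap in the higher direction for 2 member probe sets, and for 1 with quantile scaling, against 4.5% and 4.18% of all. Without the dishes of high Actb ratio it was 8, against 16.8%. With 1 dish left out it was 3 to 7, against 8.04% to 10.4%. It was 7 without WT replicate 2 or STAT3-MER replicate 2, against 9.96% and 9.92%. In the lower direction it was 1, and 0 with quantile scaling, against 3.63% and 4.06% of all. Without the dishes of high Actb ratio it was 4, against 13.6%. With 1 dish left out it was 1 to 5, against 7.32% to 9.91%. It was 5 without WT replicate 3, and 2 without WT replicate 1 or STAT3-MER replicate 1 or 2. With fewer dishes groups overlap less by construction. Isoform ratios without overlap numbered 1, and 4 without the dishes of high Actb ratio. With 1 dish left out they numbered 1 to 3 (3 without WT replicate 1, and 2 without any 1 of the STAT3-MER dishes). Hk2 to Hk1 was among them each time. For dishes left out this was fixed in advance, since groups that are apart stay apart when a dish is removed. Other scalings were not run on the ratios. The median log2 fold change of the 28 genes ran from -0.12 to 0.19 with 1 dish left out. The second chip planned for isoform ratios gave no value, since no pair has one.

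With the 3′ to 5′ ratio of Actb as a covariate, the log2 fold change changed sign for Aldoc (-0.17), Eno2 (-0.22), Ldhb (0.36), Pdha1 (-0.035), Pdhb (-0.068), Pfkl (-0.19), Pfkm (-0.11), Pgk1 (-0.19), Pkm (-0.25), Slc2a1 (-0.035), Slc2a3 (0.54) and Tpi1 (-0.065). Without the dishes of high Actb ratio it changed sign for Eno2 (-0.46), Ldha (0.089), Ldhb (0.22), Pkm (-0.076) and Slc2a3 (0.50). Both alternatives were chosen after seeing the data. With 1 dish left out, it ranged from -0.30 to 0.055 for Aldoa, from -0.30 to 0.60 for Aldoc, from -0.14 to 0.13 for Dlat, from -0.33 to 0.56 for Eno2, from -0.40 to 0.13 for Eno3, from -0.53 to 0.24 for Ldha, from -0.33 to 0.41 for Ldhb, from -0.090 to 0.16 for Pdha1, from -0.052 to 0.55 for Pdhb, from -0.85 to 0.015 for Pdk1, from -0.17 to 0.12 for Pfkfb3, from -0.15 to 0.30 for Pfkl, from -0.054 to 0.41 for Pfkm, from -0.31 to 0.20 for Pgam2, from -0.19 to 0.47 for Pgk1, from -0.23 to 0.33 for Pkm, from -0.23 to 0.084 for Slc16a1, from -0.090 to 0.62 for Slc2a1, from -0.40 to 0.54 for Slc2a3 and from -0.16 to 0.67 for Tpi1. The cause was not tested. Averaging over every probe set of the gene changed the sign for Pdk3 (0.01), Pdhb (-0.039), Pkm (-0.13), Dlat (-0.022), Ldhb (0.047) and Slc2a3 (0.076). Hk1, Hk2, Pfkp, Pgam1, Bpgm, Pdk2 and Slc16a3 had 1 sign in all settings run, though their size moved: with 1 dish left out it ranged from -0.38 to -0.11 for Hk1, from 0.41 to 0.62 for Hk2, from 0.21 to 0.53 for Pfkp, from 0.019 to 0.41 for Pgam1, from -0.29 to -0.086 for Bpgm, from 0.87 to 1.70 for Pdk2 and from 0.074 to 0.62 for Slc16a3.

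With the replicate number as a block, 0 members passed the threshold and 1 (Pdk2) instead of 3 had an unadjusted p under 0.05. The labels give the numbers no shared origin. Deviations of same-numbered dishes correlated at -0.30, -0.34 and 0.29 on U74Av2 (where WT replicate 1 with STAT3-MER replicate 2 gave 0.46 and WT replicate 2 with STAT3-MER replicate 1 gave 0.41), at 0.13 to 0.21 on U74Bv2 and at 0.07 to 0.13 on U74Cv2, where, as on U74Bv2, every dish correlated best with its own number. For numbers 1 and 2 on U74Av2 the block therefore joined dishes that did not deviate together. Dimness is the other limit: 7 of 47 member probe sets had both group means under 100, among them those used for Pgam2 and Eno2.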
